A study of Homo sapiens with 21 samples.

Results

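The 44 collagen chain genes described here are the protein-coding rows, of 60668 gene rows in each of 2 count tables, whose symbols have the form COL, number, A, number. They run from COL1A1 to COL28A1, and antisense genes and pseudogenes are not among them. The rule used names and no measured value. Of the 44, 34 had enough counts to be tested in the first table and 37 in the second. The other 10 and 7 reached at most 19 and 16 counts in any library, so every count of members below covers the tested members and not the whole family.

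The genes were measured by RNA-seq in HCC1806, an established human triple-negative breast cancer cell line of squamous origin, grown adherent in 2D in DMEM with 15% FBS and scraped near confluence. PolyA-selected stranded libraries were sequenced as read pairs on a NovaSeq, and the 7 groups held 3 libraries each. The first table holds 3xCTL, labelled a control, 3xSR, labelled for joint overexpression of SRSF2, SRSF3 and SRSF7, and MYC-OE, labelled as overexpressing MYC. The second holds 1xCtrl, labelled the single plasmid control, and the lines labelled SRSF2-OE, SRSF3-OE and SRSF7-OE. SRSF2, SRSF3 and SRSF7 are SR proteins, which bind pre-mRNA and guide splicing, and MYC is a transcription factor that binds the E-box. No sample label says whether a line is 1 clone, whether 3xCTL carries the vector used for MYC, or whether the replicates came from separate cultures, so p-values measure the spread between these libraries, which may be technical.

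Collagens are trimers of chains that share long stretches of Gly-X-Y repeats. Each chain is hydroxylated and folded with its partners in the endoplasmic reticulum, secreted, trimmed and cross-linked outside the cell. Fibrillar chains build the fibres of connective tissue, type IV chains build the sheet of the basement membrane under epithelia, and the FACIT chains sit on the surface of fibrils. Type VII forms the anchoring fibrils below the basement membrane, and type XVII crosses the plasma membrane at hemidesmosomes, the junctions that fix basal epithelial cells to that sheet.

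The 21 libraries held from 143269192 to 303323552 counts. SRSF3 was higher in the lines labelled 3xSR (log2 fold change 0.31, edgeR adjusted p of 0.00243) and SRSF3-OE (0.49, 0.000193), SRSF7 was higher in 3xSR (0.44, 3.57e-05) and SRSF7-OE (0.26, 0.00616), and MYC was higher in MYC-OE (0.90, 5.7e-08) and also in 3xSR (0.75, 4.01e-07), SRSF3-OE (0.26, 0.00406) and SRSF7-OE (0.27, 0.00608). The libraries labelled SRSF2-OE were higher in SRSF3 (0.30, edgeR adjusted p of 0.00794) and SRSF7 (0.24, 0.00681), and their SRSF7 level of 428 ± 22.3 CPM (SD, n = 3) lay within the spread of the 435 ± 8.65 CPM in SRSF7-OE. SRSF2 was not higher in the libraries labelled SRSF2-OE (-0.16, 0.098) or in those labelled 3xSR (-0.06, 0.389), so the direction of any SRSF2 effect rests on the labels alone. The defining epithelial and basal or squamous markers were expressed in every group, with summed levels of 2158 to 4069 CPM for the 6 epithelial genes and 3521 to 5168 CPM for the 6 basal or squamous genes, where CPM is the count scaled by the TMM-adjusted library size.

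Libraries differed in how their levels followed the GC content of genes, both within the controls and between groups. The difference between GC-rich and GC-poor genes, in log2 CPM relative to the other libraries, was -0.35 in 3xCTL replicate 2 against 0.30 and 0.27 in replicates 1 and 3, and 0.71 in 1xCtrl replicate 2 against -0.19 and -0.44. It ran from -0.40 to -0.19 in 3xSR, from 0.18 to 0.34 in MYC-OE, from -0.05 to 0.09 under the label SRSF2-OE, from -0.35 to -0.15 in SRSF3-OE and from -0.05 to 0.41 in SRSF7-OE. In this trend 3xCTL replicate 2 therefore lay within the range of 3xSR, and leaving it out widens the gap between 3xSR and its control. Collagen transcripts are GC-rich, with a median of 55.3% against 49.1% over protein-coding genes, so they were among the genes this touched. Of 20 members with a mean of at least 1 CPM in both controls, 14 had a GC content of 58% or more. For these 14, 3xCTL replicate 2 lay below the mean of the other control libraries in every gene, with a median log2 difference of -0.52, and 1xCtrl replicate 2 lay above it in every gene, with a median of 1.04. For the 6 members under 58% GC these medians were -0.12 and 0.06. Counts of called collagen members are therefore also given with the GC trend of each library removed and, against the controls, without replicate 2 of the control. Values of single chains under these settings are given for only some of the calls that changed. A chain said to be called in no line was not called in the fit with neither change. The part of the GC trend and of these replicates in a result was not tested beyond that.

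**Figure D1:**
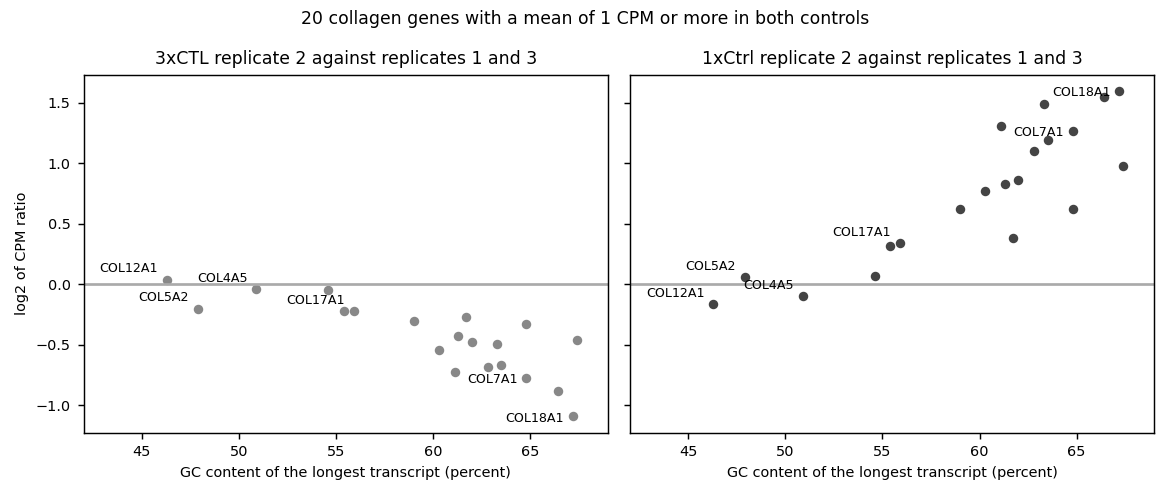
Replicate 2 of each control against the mean of replicates 1 and 3 (vertical axis, log2 difference in CPM) by GC content of the longest transcript in percent (horizontal axis), 1 point for each of the 20 collagen genes with a mean of at least 1 CPM in both controls, 3xCTL on the left and 1xCtrl on the right. The 14 genes at or above 58% GC lie below 0 in 3xCTL and above 0 in 1xCtrl, and the 6 genes below 58% lie between -0.22 and 0.04 in 3xCTL and between -0.16 and 0.34 in 1xCtrl.

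Per kilobase of the principal transcript, the family in these cells was led by 1 chain. In 3xCTL, COL17A1 stood at 163 ± 14.4 CPM per kilobase (SD, n = 3). Next came the type IV chains COL4A2 at 37.7 ± 6.77 and COL4A1 at 33.3 ± 3.09, which did not differ from each other beyond their spread. The minor fibrillar chain COL5A2 followed at 25.8 ± 2.06, then the FACIT chain COL12A1 at 19.3 ± 0.861, the anchoring fibril chain COL7A1 at 17.0 ± 4.68 and COL4A5 at 13.7 ± 0.572. COL12A1 and COL7A1 lay within their spreads of each other, as did COL7A1 and COL4A5. In 1xCtrl, COL17A1 again led at 201 ± 30.4 CPM per kilobase and COL4A2 at 33.5 ± 12.5 followed. COL7A1 at 17.4 ± 9.70 and COL4A5 at 17.2 ± 0.938 came before COL12A1 at 12.4 ± 0.836, although the spread of COL7A1 covered both. These ranks set genes of 2 tables side by side and compare no group with another.

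Type I collagen is built from COL1A1 and COL1A2, which differed widely in level. COL1A1 stood at 10.8, 6.40 and 10.3 CPM in 3xCTL and 7.25, 15.7 and 5.46 in 1xCtrl. COL1A2 had 2, 4 and 17 counts in the 3xCTL libraries, and COL6A3, the large chain of the type VI beaded filament, had 67, 41 and 17. Fibroblast markers differed between the groups: the summed level of 8 markers ran from 44.0 to 48.2 CPM in 3xCTL, from 25.4 to 27.0 in 3xSR, from 29.7 to 31.9 in MYC-OE, from 27.6 to 32.0 in 1xCtrl, and from 19.2 to 31.7 over the 3 lines of the second table. Most of it was LUM, which codes for lumican, and THY1, which did not move together: LUM was lower in 3xSR (-1.24, edgeR adjusted p of 1.61e-07) and MYC-OE (-2.07, 2.03e-09), while THY1 was higher in both (0.33, 0.00959, and 1.66, 3.19e-08), as was POSTN, which codes for periostin (2.00, 0.000462, and 1.71, 0.000959). The means in 3xCTL were 0.0715 CPM for PDGFRA, 0.869 for PDGFRB, 0.363 for DCN, 0.952 for FAP and 0.124 for POSTN. Of these low markers, PDGFRB was called lower in 3xSR (-0.91, edgeR adjusted p of 0.0289) and MYC-OE (-0.79, 0.043). PDGFRA, DCN and FAP were called in neither. TCF21 was at 0 counts in 5 of the 7 groups. The part of these markers in the results was not tested.

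**Figure D2:**
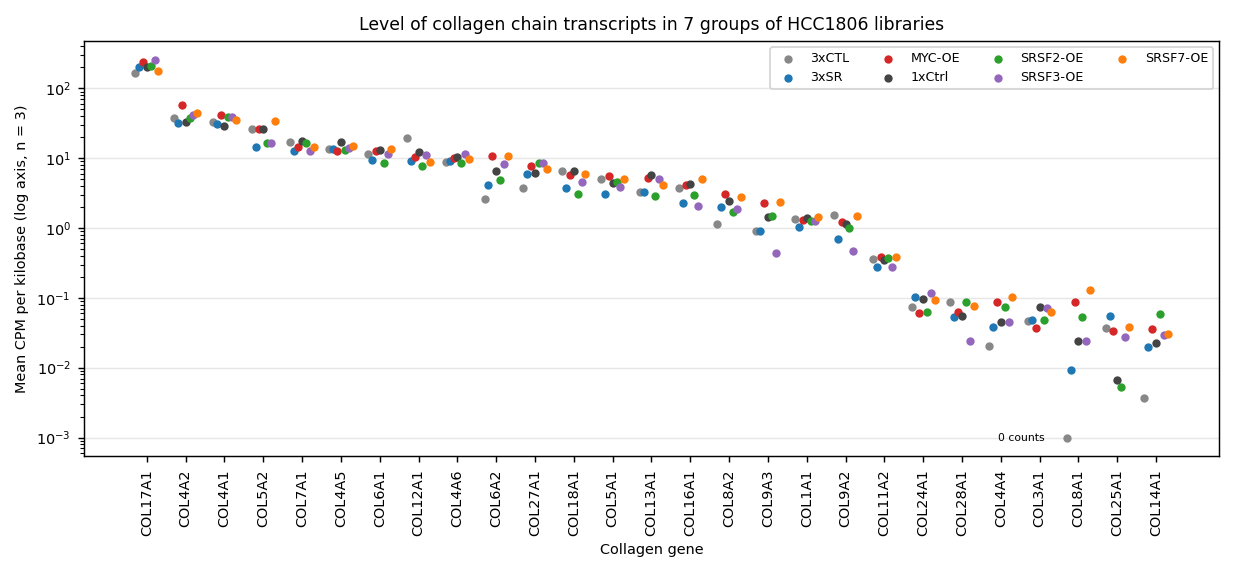
Mean level of 27 collagen genes in CPM per kilobase of transcript (vertical log axis) in each of the 7 groups, with genes ordered by level along the horizontal axis and 1 point for each group of 3 libraries. COL17A1 lies above every other chain, at 163 in 3xCTL and 201 in 1xCtrl, and COL8A1 in 3xCTL had 0 counts and is drawn at the bottom.

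In the MYC-OE libraries 14 of the 34 tested members were higher than in 3xCTL and 2 were lower, at an edgeR adjusted p under 0.05, which is 47.1% of the members tested against 35.3% of the 23160 genes tested. By direction, 18.0% of all genes were called higher and 17.3% lower. The members' median log2 fold change was 0.18 and that of all genes 0.00. In the 3xSR libraries 4 members were higher and 6 lower, 29.4% of the members against 29.0% of all genes (15.3% higher and 13.7% lower), with medians of 0.02 and 0.00. In the second table the calls were 3 higher and 7 lower in the libraries labelled SRSF2-OE (27.0% of 37 members against 23.5% of 24362 genes, of which 11.6% higher and 11.9% lower), 3 higher and 7 lower in SRSF3-OE (27.0% against 29.2%, 15.0% higher and 14.1% lower), and 4 higher and 3 lower in SRSF7-OE (18.9% against 17.3%, 9.03% higher and 8.26% lower). In this fit the members' share lay near the background in 4 of the 5 lines, and the results below are about single chains rather than the family.

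Without replicate 2 of its control, 3xSR gave 6 higher and 12 lower members, SRSF2-OE 8 and 7, SRSF3-OE 6 and 6, SRSF7-OE 15 and 3, and MYC-OE 14 and 3. The calls over all genes rose as well, so that 3xSR had 18 of 36 members called against 38.5% of all genes, and the shares were 39.5% against 30.0% in SRSF2-OE, 31.6% against 32.1% in SRSF3-OE, 47.4% against 29.2% in SRSF7-OE and 47.2% against 37.7% in MYC-OE. With the GC trend of each library removed, the counts were 8 higher and 7 lower in 3xSR, 15 and 4 in MYC-OE, 5 and 10 in SRSF2-OE, 7 and 6 in SRSF3-OE, and 8 and 6 in SRSF7-OE. These were 44.1% of members against 33.2% of all genes in 3xSR, 55.9% against 43.3% in MYC-OE, 40.5% against 33.7% in SRSF2-OE, 35.1% against 38.2% in SRSF3-OE and 37.8% against 28.7% in SRSF7-OE. With libraries scaled by total counts alone, SRSF3-OE gave 1 higher and 8 lower and SRSF2-OE 2 and 7. The count of SRSF3-OE fell to 6 without 1xCtrl replicate 1, SRSF3-OE replicate 1 or SRSF3-OE replicate 2 and to 5 without SRSF3-OE replicate 3, and that of SRSF7-OE fell to 4 without 1xCtrl replicate 1.

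Of the 34 members tested in all 5 lines, 24 were called in at least 1 line. Of these 24, 10 were called only higher, 9 only lower and 5 in both directions, and 10 of the 34 were called in no line. The lines of a table share their control, so the same direction in several lines is not independent. COL4A1 and COL4A4 were each higher in 4 lines and COL17A1 in 3, while COL12A1 was lower in 4 and COL4A5 and COL9A2 in 3 each. COL5A2 was lower in 3 lines and higher in 1.

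**Figure D3:**
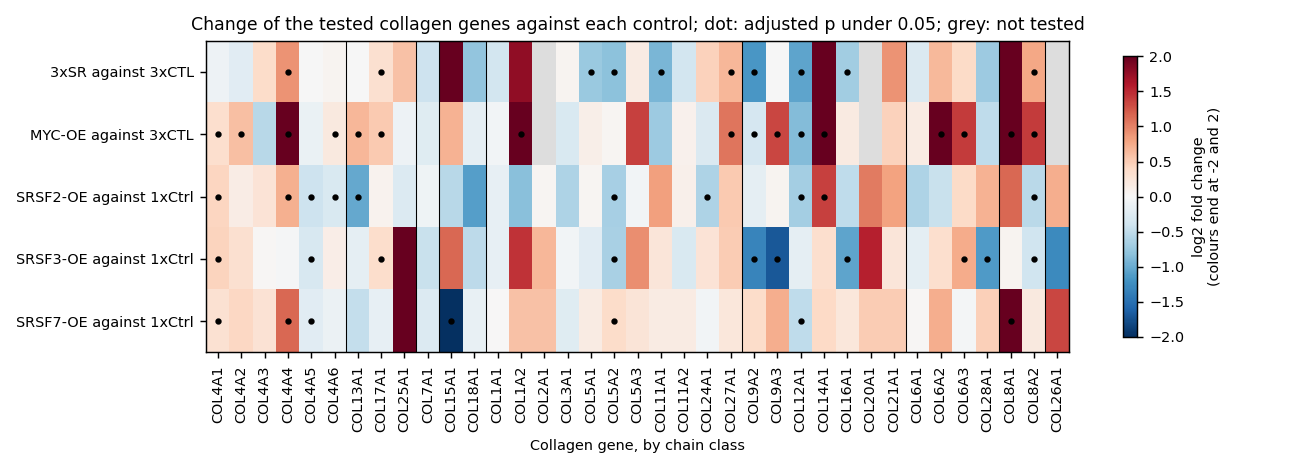
Heat map of the log2 fold change of 37 tested collagen genes (columns, grouped by structural class) in each of the 5 lines against its own control (rows), red for higher, blue for lower, grey for not tested, with a dot on those called at an edgeR adjusted p under 0.05 and colours ending at -2 and 2. The MYC-OE row holds 14 higher and 2 lower calls, and COL12A1 has a dot in 4 of 5 rows, each lower.

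COL17A1, the transmembrane chain of the hemidesmosome, lies at chr10:104031286-104085957 on the minus strand (GRCh38, ENSG00000065618.21). It stood at 957, 838 and 994 CPM in the 3xCTL libraries and at 1146, 1207 and 1131 in 3xSR. In MYC-OE the levels were 1288, 1334 and 1385 CPM, so that neither group overlapped the control. COL17A1 was 1.25-fold higher in 3xSR (log2 difference 0.32 with SE 0.065, edgeR adjusted p of 0.00282) and 1.44-fold higher in MYC-OE (log2 difference 0.52 with SE 0.065, edgeR adjusted p of 6.43e-05). Against 1xCtrl, at 1113, 1334 and 993 CPM, the SRSF3-OE libraries stood at 1507, 1406 and 1481 and lay above every control library (log2 difference 0.35 with SE 0.087, edgeR adjusted p of 0.00784). That call was lost without 1xCtrl replicate 1 or 3 or SRSF3-OE replicate 1, 2 or 3 (edgeR adjusted p from 0.061 to 0.148). The libraries labelled SRSF2-OE, at 1183, 1225 and 1200 CPM, and SRSF7-OE, at 1043, 1006 and 1010, overlapped 1xCtrl, with log2 fold changes of 0.07 and -0.17. Without 1xCtrl replicate 2 SRSF2-OE was called higher (0.19, edgeR adjusted p of 0.0395), and without replicate 3 SRSF7-OE was called lower (-0.30, 0.0385), as it was with the GC trend removed (-0.21, 0.0219). As these are bulk samples, fewer cells of a type and less RNA per cell cannot be told apart.

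As a share of all collagen counts, which lets longer genes weigh more, COL17A1 held 39.2%, 41.1% and 39.5% in the 3xCTL libraries, 51.8%, 51.3% and 51.8% in 3xSR and 46.3%, 46.6% and 45.9% in MYC-OE. The groups did not overlap. In 1xCtrl the share was 47.2%, 43.7% and 47.4%, and the SRSF3-OE libraries, at 53.0%, 53.4% and 51.8%, lay above it, as did those labelled SRSF2-OE at 49.6%, 49.6% and 49.3%. In SRSF7-OE it was 40.7%, 42.9% and 39.7%, below every control library. The summed collagen level was 2332 ± 256 CPM in 3xCTL (SD, n = 3), 2249 ± 90.6 in 3xSR and 2888 ± 120 in MYC-OE, and 2502 ± 496, 2430 ± 43.3, 2778 ± 127 and 2483 ± 120 CPM in 1xCtrl and the lines labelled SRSF2-OE, SRSF3-OE and SRSF7-OE.

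**Figure D4:**
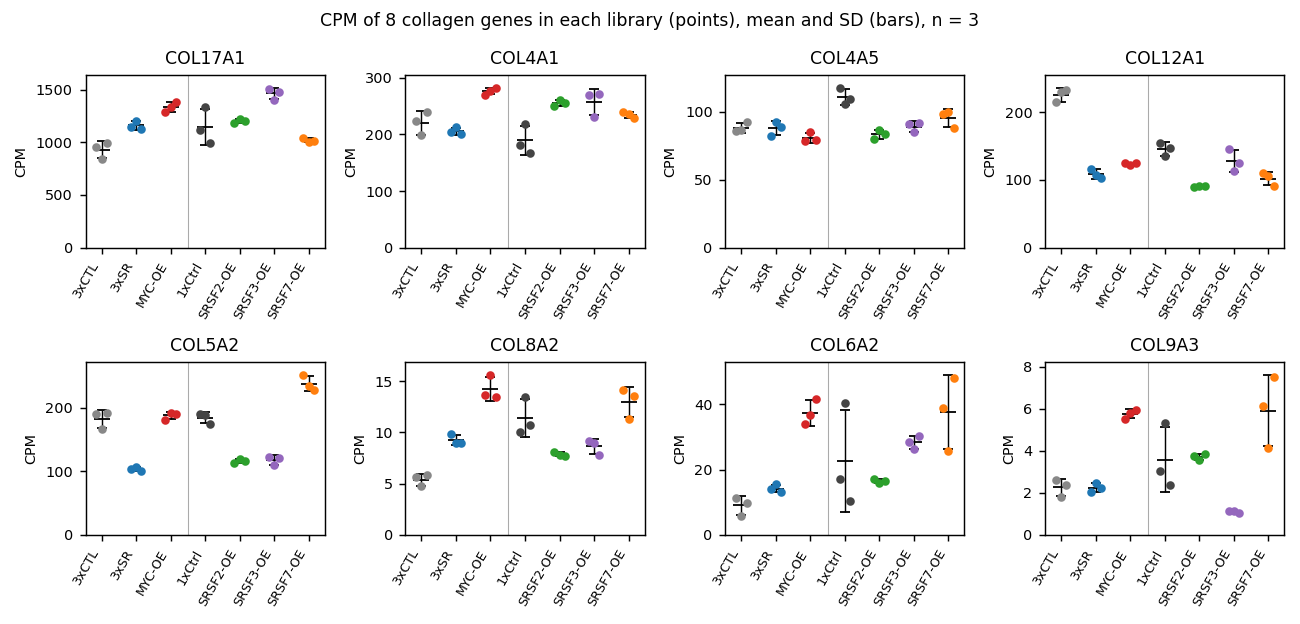
Level in CPM (vertical axes, each from 0) of 8 collagen genes in every library, with 3 points for each of the 7 groups and bars for the group mean and SD. COL12A1 lies at 214 to 233 CPM in 3xCTL and below 125 in every 3xSR and MYC-OE library, and the COL17A1 points of 3xSR and MYC-OE lie above those of 3xCTL.

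The other transmembrane chain with an ample level was COL13A1, which is found at cell contacts and the neuromuscular junction. It stood at 11.1, 9.09 and 11.3 CPM in 3xCTL and 15.2, 16.8 and 17.8 in MYC-OE, without overlap (log2 difference 0.66 with SE 0.099, edgeR adjusted p of 0.000267). In the libraries labelled SRSF2-OE it stood at 8.61, 8.75 and 9.72 CPM against 16.4, 24.0 and 14.9 in 1xCtrl (log2 difference -1.03 with SE 0.16, edgeR adjusted p of 0.000642), so the gene was called in opposite directions in these lines. In SRSF3-OE, at 15.3, 16.7 and 16.7 CPM, it overlapped the control. Removal of the GC trend added a higher call in 3xSR (0.18, edgeR adjusted p of 0.0465) and a lower one in SRSF7-OE (-0.52, 0.000162).

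The 6 type IV chains lie as 3 head-to-head pairs, COL4A1 beside COL4A2 on chromosome 13, COL4A3 beside COL4A4 on chromosome 2 and COL4A5 beside COL4A6 on chromosome X. Their RefSeq starts lie 126, 418 and 379 bases apart, so that the windows before them overlap. Short pieces of promoters are printed here for COL17A1, COL4A4, COL4A5, COL9A2 and COL12A1, each called in 1 direction in at least 3 lines, together with COL8A2, whose direction differed between the tables. COL4A1, called in 4 lines, is not printed because nearly all of its window lies in annotated exons. The pieces are RefSeq (GRCh38.p14) sequence before RefSeq starts and outside annotated exons, 5′ to 3′ on the strand of the gene. Those of COL4A4 and COL9A2 lie inside the bounds of the annotated gene, which begins further upstream than the RefSeq start. Capitals mark the GC box GGGCGG and the motif CCAAT, on either strand (CCGCCC and ATTGG).
COL17A1, chr10:104085958-104086130, minus strand: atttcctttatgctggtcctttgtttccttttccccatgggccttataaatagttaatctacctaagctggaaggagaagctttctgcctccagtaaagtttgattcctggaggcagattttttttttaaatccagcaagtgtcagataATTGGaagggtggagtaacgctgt
COL4A4, chr2:227164237-227164395, minus strand: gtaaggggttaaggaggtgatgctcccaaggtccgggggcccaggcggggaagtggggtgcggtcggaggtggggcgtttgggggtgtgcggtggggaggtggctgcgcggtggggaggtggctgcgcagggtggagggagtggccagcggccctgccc
COL4A5, chrX:108439588-108439837, plus strand: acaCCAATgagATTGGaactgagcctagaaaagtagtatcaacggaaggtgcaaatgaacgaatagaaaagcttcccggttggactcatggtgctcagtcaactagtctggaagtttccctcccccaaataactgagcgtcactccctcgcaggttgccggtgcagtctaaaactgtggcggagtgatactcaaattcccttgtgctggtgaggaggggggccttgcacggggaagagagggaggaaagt
COL9A2, chr1:40317389-40317536, minus strand: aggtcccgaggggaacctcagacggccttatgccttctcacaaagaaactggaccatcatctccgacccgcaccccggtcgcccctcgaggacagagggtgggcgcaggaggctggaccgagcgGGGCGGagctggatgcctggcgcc
COL12A1, chr6:75206054-75206303, minus strand: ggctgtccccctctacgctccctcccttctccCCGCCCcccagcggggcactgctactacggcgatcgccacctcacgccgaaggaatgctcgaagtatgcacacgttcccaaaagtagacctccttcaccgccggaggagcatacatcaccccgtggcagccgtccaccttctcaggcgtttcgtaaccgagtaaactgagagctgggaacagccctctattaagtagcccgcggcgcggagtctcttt
COL8A2, chr1:36125223-36125472, minus strand: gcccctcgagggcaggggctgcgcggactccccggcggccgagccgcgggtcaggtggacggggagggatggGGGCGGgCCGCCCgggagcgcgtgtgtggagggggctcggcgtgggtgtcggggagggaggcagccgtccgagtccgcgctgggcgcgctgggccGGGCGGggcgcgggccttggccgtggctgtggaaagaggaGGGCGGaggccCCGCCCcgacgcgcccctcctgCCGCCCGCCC
The stretch of COL17A1 is 40.5% GC with 1 CCAAT motif, that of COL4A5 51.2% with 2, those of COL9A2 and COL12A1 67.6% and 61.2% with 1 GC box each, that of COL4A4 73.0% with neither motif, and that of COL8A2 82.0% with 7 GC boxes. In the 250 bases before RefSeq starts, 32 of the 44 members had 44 windows. Of these 44 windows, 24 held a GC box, 12 a CCAAT motif and 8 a TATAAA on either strand, against 42.6%, 32.0% and 10.7% of 35116 windows of the same length over all genes. The E-box CACGTG was in 0 of the 44 windows, against 6.3% of all windows. These are letter matches within the windows and say nothing of whether a factor binds.

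COL4A1 and COL4A2 form the common network of basement membranes. COL4A1, at chr13:110148963-110307233 on the minus strand (GRCh38, ENSG00000187498.16), stood at 223, 198 and 239 CPM in 3xCTL, 205, 212 and 201 in 3xSR and 270.2, 277 and 282 in MYC-OE. The MYC-OE libraries lay above every control library (log2 difference 0.33 with SE 0.063, edgeR adjusted p of 0.00164), and those of 3xSR overlapped the control (log2 fold change -0.10). In the second table COL4A1 stood at 182, 219 and 168 CPM in 1xCtrl. The SRSF2-OE libraries held 249.7, 260 and 256 CPM, the SRSF3-OE libraries 269, 231 and 271 and the SRSF7-OE libraries 239, 237 and 229. Each line lay above the highest control library, 1xCtrl replicate 2. The log2 fold changes were 0.43 (SE 0.090, edgeR adjusted p of 0.00373), 0.44 (SE 0.090, 0.00226) and 0.31 (SE 0.089, 0.0301). All 3 calls were lost when other libraries were left out: SRSF2-OE without 1xCtrl replicate 1 or SRSF2-OE replicate 1, 2 or 3 (edgeR adjusted p from 0.0552 to 0.0866), SRSF3-OE without 1xCtrl replicate 1 or SRSF3-OE replicate 1 or 3 (edgeR adjusted p from 0.0691 to 0.0717), and SRSF7-OE without 1xCtrl replicate 1 or 3 or SRSF7-OE replicate 1, 2 or 3 (edgeR adjusted p from 0.14 to 0.256). In 3xSR the gene was called lower without 3xCTL replicate 2 (-0.17, edgeR adjusted p of 0.0114).

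COL4A2, its partner chain at chr13:110305812-110513209 on the plus strand (GRCh38, ENSG00000134871.19), stood at 270.4, 194 and 270.3 CPM in 3xCTL and 356, 366 and 394 in MYC-OE, again without overlap (log2 difference 0.60 with SE 0.11, edgeR adjusted p of 0.0026). In 3xSR it stood at 207, 221 and 198 CPM, within the range of the control (-0.23, edgeR adjusted p of 0.164), but it was called lower without 3xCTL replicate 2 (-0.37, 0.000127) and moved to 0.02 with the GC trend removed. COL4A2 in 1xCtrl stood at 186, 309.8 and 156 CPM, a wide spread that overlapped the 3 lines, and no line was called. Without 1xCtrl replicate 2 each was called higher, by 0.49 (edgeR adjusted p of 0.0086), 0.65 (0.00151) and 0.77 (0.000845) in the lines labelled SRSF2-OE, SRSF3-OE and SRSF7-OE. Removal of the GC trend likewise gave higher calls of 0.25 (edgeR adjusted p of 0.0247), 0.54 (7.61e-05) and 0.33 (0.00581). The transcript shares 95 exon bases with antisense genes, and the strand setting of the counting is not given in the sources used here.

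COL4A5 and COL4A6 lie side by side on chromosome X and pair in epithelial basement membranes. COL4A5, at chrX:108439844-108697545 on the plus strand (GRCh38, ENSG00000188153.13), stood at 117, 106 and 109 CPM in 1xCtrl, 79.6, 86.7 and 83.4 under the label SRSF2-OE, 90.5, 84.6 and 91.6 under SRSF3-OE and 97.9, 99.7 and 87.8 under SRSF7-OE. None of the 9 libraries reached the lowest control. The gene was lower by log2 fold changes of -0.41 (SE 0.066, edgeR adjusted p of 0.000724), -0.32 (SE 0.066, 0.00286) and -0.22 (SE 0.066, 0.0375). The SRSF7-OE call was lost without 1xCtrl replicate 1 or SRSF7-OE replicate 3 (edgeR adjusted p from 0.0547 to 0.0892). In the first table COL4A5 stood at 85.5, 86.6 and 92.4 CPM in 3xCTL, 82.3, 92.3 and 88.5 in 3xSR and 78.3, 85.1 and 79.1 in MYC-OE, and neither line was called.

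COL4A6 was called lower beside COL4A5 in 1 of these lines. In the libraries labelled SRSF2-OE it stood at 54.8, 57.2 and 55.1 CPM against 70.0, 70.9 and 65.3 in 1xCtrl (log2 difference -0.30 with SE 0.057, edgeR adjusted p of 0.00211). In SRSF3-OE, where COL4A5 was lower, COL4A6 stood at 76.4, 73.2 and 76.5 CPM, above every control library but not called (0.13, edgeR adjusted p of 0.103). It was called higher there, and in 3xSR, after removal of the GC trend (0.21, edgeR adjusted p of 0.00598, and 0.14, 0.0173). In MYC-OE it was higher, at 64.1, 66.1 and 67.4 CPM against 57.0, 56.3 and 59.9 (log2 difference 0.19 with SE 0.051, edgeR adjusted p of 0.0125), a call lost without MYC-OE replicate 3 (edgeR adjusted p of 0.0517). The ratio of COL4A5 to COL4A6 counts, which is not corrected for length, was 1.68, 1.49 and 1.67 in 1xCtrl and 1.19, 1.16 and 1.20 in SRSF3-OE. It was 1.5, 1.54 and 1.54 in 3xCTL and 1.22, 1.29 and 1.17 in MYC-OE. Neither line's ratios overlapped its control's.

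COL4A4, which with COL4A3 and COL4A5 forms the network of the kidney's filter, was a low chain that rose in 4 lines. It stood at 0.153, 0.194 and 0.267 CPM in 3xCTL, 0.340, 0.452 and 0.349 in 3xSR and 0.759, 0.945 and 0.959 in MYC-OE. The lowest MYC-OE library lay above every 3xSR library, which in turn lay above every control. The log2 fold changes were 0.90 in 3xSR (SE 0.25, edgeR adjusted p of 0.0172) and 2.12 in MYC-OE (SE 0.25, 4.09e-05). In the second table COL4A4 stood at 0.447, 0.481 and 0.442 CPM in 1xCtrl and 1.14, 0.861 and 1.04 in SRSF7-OE (log2 difference 1.15 with SE 0.23, edgeR adjusted p of 0.00415). The libraries labelled SRSF2-OE, at 0.574, 1.06 and 0.609 CPM, were called higher (0.71, edgeR adjusted p of 0.036), and SRSF3-OE, at 0.437, 0.464 and 0.444, was not (-0.03). The call in 3xSR was lost without 3xCTL replicate 1 or 3xSR replicate 2 (edgeR adjusted p from 0.0716 to 0.075), and that in SRSF2-OE without 1xCtrl replicate 1 or 3 or SRSF2-OE replicate 2 (edgeR adjusted p from 0.103 to 0.245). COL4A3, on the other side of the shared region, was called in no line, with log2 fold changes of -0.55 to 0.37.

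COL7A1, the chain of the anchoring fibrils, and COL18A1, a multiplexin whose end fragment is endostatin, were not called in any line and varied widely among the control libraries. COL7A1 stood at 181, 107 and 184 CPM in 3xCTL and 123, 264 and 95.8 in 1xCtrl. Its log2 fold changes were -0.42 in 3xSR, -0.24 in MYC-OE, and -0.09, -0.45 and -0.28 in the lines labelled SRSF2-OE, SRSF3-OE and SRSF7-OE. Without 3xCTL replicate 2 it was called lower in 3xSR (-0.64, edgeR adjusted p of 0.0149). Without 1xCtrl replicate 2 its sign turned in the 3 lines of the second table, to 0.46, 0.09 and 0.29, none of them called. Once the GC trend was taken out it was called lower in MYC-OE (-0.36, edgeR adjusted p of 0.00773) and SRSF7-OE (-0.38, 0.00289), so its direction in SRSF7-OE turned between these settings.

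COL18A1 stood at 49.6, 22.2 and 44.7 CPM in 3xCTL and 22.3, 23.9 and 21.01 in 3xSR. The 3xSR libraries lay near 3xCTL replicate 2 and below the other control libraries (-0.79, edgeR adjusted p of 0.0773). Without that replicate the gene was called lower in 3xSR (-1.07, 3.73e-07) and in MYC-OE (-0.46, 0.000428). In the libraries labelled SRSF2-OE it stood at 18.2, 19.4 and 17.0 CPM against 26.9, 70.6 and 19.8 in 1xCtrl, without overlap yet not called (-1.10, edgeR adjusted p of 0.11). It was called there without 1xCtrl replicate 3 (-1.48, 0.0327). Without 1xCtrl replicate 2, the highest control library, the difference in SRSF2-OE was -0.36 and not called (edgeR adjusted p of 0.361). COL18A1 was called lower, after removal of the GC trend, in 3xSR (-0.44, edgeR adjusted p of 0.0112), MYC-OE (-0.32, 0.0372) and SRSF2-OE (-0.86, 0.00119). COL18A1 shares 1401 exon bases with SLC19A1, which is read from the opposite strand. The other multiplexin, COL15A1, had 12, 9 and 12 counts in 1xCtrl and 0, 0 and 2 in SRSF7-OE (edgeR adjusted p of 0.0249). The pooled 33 counts against 2 give a ratio of control to line of 21.8 with a 95% counting interval of 5.58 to 188. That call was lost without 1xCtrl replicate 1 or 3 or SRSF7-OE replicate 1 or 2 (edgeR adjusted p from 0.0525 to 0.0866). Without SRSF7-OE replicate 3, which held the line's 2 counts, the line was at 0. COL15A1 shares 137 exon bases with a long non-coding RNA gene on the opposite strand.

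Among the fibrillar chains, COL5A2 was the one at an ample level with calls in 4 lines. Type V collagen is a minor fibrillar type that helps to start fibrils and set their width. COL5A2, at chr2:189031896-189225312 on the minus strand (GRCh38, ENSG00000204262.14), stood at 190.3, 166 and 192 CPM in 3xCTL and 103, 106 and 101 in 3xSR (log2 difference -0.82 with SE 0.061, edgeR adjusted p of 1.49e-06). The MYC-OE libraries, at 181, 192 and 191 CPM, overlapped the control (0.04). In 1xCtrl it stood at 189.9, 189 and 174 CPM. The SRSF2-OE libraries held 113, 119.7 and 116 CPM, the SRSF3-OE libraries 123, 109 and 121 and the SRSF7-OE libraries 251, 235 and 229. The first and second of these lines were lower, at log2 fold changes of -0.66 (SE 0.064, edgeR adjusted p of 1.54e-05) and -0.65 (SE 0.064, 1.08e-05), and SRSF7-OE was higher, at 0.37 (SE 0.063, 0.00203). No line with a call overlapped its control. None of the 4 calls was lost with any single library left out.

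COL5A1, the chain that pairs with COL5A2, stood at 49.2, 33.1 and 46.7 CPM in 3xCTL and 24.9, 27.7 and 24.7 in 3xSR, below every control library (log2 difference -0.74 with SE 0.14, edgeR adjusted p of 0.00328). It was called in no other line, with log2 fold changes of -0.22 to 0.16. COL27A1, a fibrillar chain known from cartilage, stood at 30.1, 23.5 and 33.3 CPM in 3xCTL, 40.5, 50.4 and 47.1 in 3xSR and 57.7, 56.0 and 68.4 in MYC-OE. Both lines lay above every control, by 0.67 (edgeR adjusted p of 0.00567) and 1.07 (SE 0.14, 0.000289). In 1xCtrl it stood at 38.6, 66.4 and 35.9 CPM, and no line of the second table was called. After removal of the GC trend it was called higher in SRSF2-OE (0.58, edgeR adjusted p of 3.05e-06) and SRSF3-OE (0.69, 3.57e-07).

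Low fibrillar chains also carried calls. COL1A2 had 50, 58 and 47 counts in MYC-OE against 2, 4 and 17 in 3xCTL (log2 difference 2.52 with SE 0.64, edgeR adjusted p of 0.00907), and without 3xCTL replicate 3 the difference was 3.96. The 3xSR libraries, with 29, 31 and 14 counts, also ranged wide (1.78, edgeR adjusted p of 0.0597). Its partner in type I collagen, COL1A1, was called in no line, with log2 fold changes of -0.37 to 0.01. COL11A1 was lower in 3xSR (-0.92, edgeR adjusted p of 0.0309), a call lost without 3xCTL replicate 2 or 3 or 3xSR replicate 1 or 2 (edgeR adjusted p from 0.0643 to 0.105). COL24A1 was lower in the libraries labelled SRSF2-OE (-0.62, edgeR adjusted p of 0.0226), lost without SRSF2-OE replicate 1 or 3 (edgeR adjusted p from 0.0505 to 0.0564). COL3A1, COL5A3 and COL11A2 were called in no line, although COL5A3 was called higher in MYC-OE after removal of the GC trend (1.31, edgeR adjusted p of 0.0332).

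COL12A1, a FACIT chain found on fibrils of dense connective tissue, was lower in 4 lines. It lies at chr6:75084326-75206051 on the minus strand (GRCh38, ENSG00000111799.21). The gene stood at 214, 229.7 and 233 CPM in 3xCTL, 117, 107 and 102 in 3xSR and 124, 122 and 125 in MYC-OE. No library of either line came near the control range, and the fold changes of 0.481 in 3xSR (log2 difference -1.06 with SE 0.058, edgeR adjusted p of 1.3e-07) and 0.549 in MYC-OE (log2 difference -0.87 with SE 0.057, edgeR adjusted p of 3.88e-07) were both called. In 1xCtrl COL12A1 stood at 155, 135 and 147 CPM, against 89.0, 91.4 and 91.3 for the SRSF2-OE label and 110, 105 and 90.9 for SRSF7-OE, both below every control. Their log2 fold changes were -0.68 (SE 0.092, edgeR adjusted p of 0.000193) and -0.51 (SE 0.091, 0.00243). SRSF3-OE, at 145, 114 and 126 CPM, overlapped the control (-0.18, edgeR adjusted p of 0.158). The summed fibroblast markers given above were also lower in 3xSR and MYC-OE than in 3xCTL. That was chiefly through LUM, with the low PDGFRB also lower, and against THY1 and POSTN. The part of these markers in the COL12A1 result was not tested. None of these 4 calls was lost with any single library left out.

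The type IX chains COL9A2 and COL9A3, which with COL9A1 form a FACIT of cartilage, did not move together in every line. COL9A2 stood at 4.90, 3.79 and 4.65 CPM in 3xCTL, 2.03, 1.96 and 1.94 in 3xSR (log2 difference -1.17 with SE 0.11, edgeR adjusted p of 1.5e-05) and 3.38, 3.50 and 3.76 in MYC-OE (-0.33, edgeR adjusted p of 0.0392). The MYC-OE call was lost without 3xCTL replicate 1 or 3 or MYC-OE replicate 1, 2 or 3 (edgeR adjusted p from 0.0553 to 0.153). COL9A3 stood at 2.61, 1.82 and 2.39 CPM in 3xCTL and 2.05, 2.45 and 2.25 in 3xSR, which overlapped. In MYC-OE, however, it stood at 5.53, 5.83 and 5.94 CPM, above every control (log2 difference 1.34 with SE 0.13, edgeR adjusted p of 1.18e-05), while COL9A2 was lower there. COL9A3 was also called higher, once the GC trend was taken out, in 3xSR (0.28, edgeR adjusted p of 0.0418) and SRSF7-OE (0.48, 0.0013).

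In SRSF3-OE both type IX chains were lower. COL9A2 stood at 1.39, 1.31 and 1.27 CPM against 3.08, 4.29 and 2.53 in 1xCtrl (log2 difference -1.32 with SE 0.19, edgeR adjusted p of 0.000163). COL9A3 stood at 1.12, 1.14 and 1.07 CPM against 3.04, 5.32 and 2.36 (log2 difference -1.69 with SE 0.28, edgeR adjusted p of 0.000975). Neither overlapped its control, and without 1xCtrl replicate 2, the highest control library for both, COL9A3 was still lower, at -1.30. COL9A3 shares 45 exon bases with TCFL5 on the opposite strand. COL9A1 reached at most 4 counts in any library and was not tested.

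Of the other FACIT chains, COL16A1 was lower in 3xSR (-0.70, edgeR adjusted p of 0.0237) and in SRSF3-OE (-1.05, SE 0.30, 0.0255). It stood at 10.8, 12.6 and 12.1 CPM in SRSF3-OE against 19.4, 37.9 and 16.1 in 1xCtrl, of which replicate 2 was far the highest. Without it the difference was -0.60 and still called (edgeR adjusted p of 0.0281). The call in 3xSR was lost without 3xCTL replicate 1 or 3 or 3xSR replicate 1 or 3 (edgeR adjusted p from 0.0745 to 0.0873), and that in SRSF3-OE without SRSF3-OE replicate 1, 2 or 3 (edgeR adjusted p from 0.0567 to 0.0864). COL14A1 had 38, 61 and 54 counts in MYC-OE against 17, 0 and 0 in 3xCTL (3.13, edgeR adjusted p of 0.0226), and 113, 104 and 39 in SRSF2-OE against 36, 42 and 12 in 1xCtrl (1.37, 0.0238). Both groups were low, and without 3xCTL replicate 1 the control held 0 counts. The MYC-OE call was lost without MYC-OE replicate 2 or 3 (edgeR adjusted p from 0.0566 to 0.072) and the SRSF2-OE call without 1xCtrl replicate 3 or SRSF2-OE replicate 1 or 2 (edgeR adjusted p from 0.0668 to 0.127). COL16A1 was also lower in SRSF2-OE once the GC trend was taken out (-0.37, edgeR adjusted p of 0.01115). COL21A1 was called in no line, nor was COL20A1 in the second table, where alone it was tested.

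Type VI collagen forms beaded filaments around cells from 3 main chains. COL6A2 stood at 11.4, 5.78 and 9.89 CPM in 3xCTL and 33.8, 36.7 and 41.5 in MYC-OE, 4.13-fold higher (log2 difference 2.05 with SE 0.23, edgeR adjusted p of 0.000322). In 3xSR it stood at 14.1, 15.4 and 13.1 CPM, above every control library but not called (0.65, edgeR adjusted p of 0.0685). With the GC trend removed it was called higher in 3xSR (0.98, edgeR adjusted p of 1.47e-07), SRSF3-OE (0.73, 0.00238) and SRSF7-OE (0.63, 0.00825). COL6A1, its neighbour on chromosome 21, was called in no line, and in MYC-OE its log2 fold change was 0.16. COL6A1 was lower in SRSF2-OE after removal of the GC trend (-0.47, edgeR adjusted p of 0.00338). The ratio of COL6A1 to COL6A2 counts, uncorrected for length, was 4.94, 6.03 and 5.50 in 3xCTL, 2.81, 2.75 and 2.86 in 3xSR and 1.57, 1.43 and 1.37 in MYC-OE, 3 ranges that did not overlap. COL6A3 had 119, 107 and 129 counts in MYC-OE against 67, 41 and 17 in 3xCTL (1.40, edgeR adjusted p of 0.00601). It had 92, 83 and 113 counts in SRSF3-OE against 55, 76 and 41 in 1xCtrl (0.74, edgeR adjusted p of 0.0369), a call lost without 1xCtrl replicate 1 or 3 or SRSF3-OE replicate 1, 2 or 3 (edgeR adjusted p from 0.0807 to 0.156). COL28A1, a related chain, was lower in SRSF3-OE, with 21, 12 and 32 counts against 51, 37 and 49 (log2 difference -1.14 with SE 0.35, edgeR adjusted p of 0.0244), and that call was lost without 1xCtrl replicate 1 or 3 or SRSF3-OE replicate 1 or 2 (edgeR adjusted p from 0.0517 to 0.0685).

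The short chains of type VIII collagen form hexagonal lattices, as in Descemet's membrane of the cornea. COL8A2, at chr1:36095236-36125220 on the minus strand (GRCh38, ENSG00000171812.13), stood at 5.61, 4.74 and 5.81 CPM in 3xCTL, 9.84, 8.96 and 8.99 in 3xSR (log2 difference 0.78 with SE 0.095, edgeR adjusted p of 8.66e-05) and 13.6, 15.6 and 13.5 in MYC-OE (log2 difference 1.40 with SE 0.096, edgeR adjusted p of 5.26e-07). The 3 groups did not overlap. In the second table it moved the other way: 10.1, 13.5 and 10.7 CPM in 1xCtrl, 8.09, 7.83 and 7.71 in SRSF2-OE (-0.54, edgeR adjusted p of 0.00518) and 9.20, 8.93 and 7.81 in SRSF3-OE (-0.40, 0.0204). The SRSF3-OE call was lost without 1xCtrl replicate 2 or SRSF3-OE replicate 3 (edgeR adjusted p from 0.0553 to 0.0928), and also once the GC trend was taken out (-0.26, edgeR adjusted p of 0.0885). SRSF7-OE, at 14.1, 11.3 and 13.6 CPM, overlapped the control.

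COL8A1, its partner, had 0, 0 and 0 counts in the 3xCTL libraries, 0, 31 and 0 in 3xSR and 128, 97 and 106 in MYC-OE. Against a limit of 3 counts per control library, MYC-OE was at least 32.4-fold higher (edgeR adjusted p of 0.0213), a call lost without 3xCTL replicate 2 or MYC-OE replicate 1, 2 or 3 (edgeR adjusted p from 0.0551 to 0.0576). In the second table the gene had 38, 18 and 23 counts in 1xCtrl, 86, 71 and 39 under the label SRSF2-OE, 16, 12 and 60 under SRSF3-OE and 204, 146 and 241 under SRSF7-OE. SRSF7-OE lay above every other group of the second table and was higher than 1xCtrl (log2 difference 2.45 with SE 0.49, edgeR adjusted p of 0.0049), and no single library left out ended that call. COL10A1, the third short chain, reached at most 7 counts and was not tested.

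Of the chains too low to test, COL6A5, COL6A6, COL9A1, COL10A1, COL19A1, COL22A1 and COL23A1 were left out in both tables, with 3 to 16 counts in their highest library. COL2A1, the chain of cartilage fibrils, COL20A1 and COL26A1 were tested in the second table alone and called in none of its lines. COL25A1, a transmembrane chain first found in brain, was tested in both and not called, with 0.58 and -0.10 in 3xSR and MYC-OE and -0.27, 1.99 and 2.52 in SRSF2-OE, SRSF3-OE and SRSF7-OE (log2 fold changes). The last was called higher once the GC trend was taken out (2.51, edgeR adjusted p of 0.0456).

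MYC-OE and 3xSR were also compared directly. MYC-OE was higher for 17 of 34 members and lower for 1, 52.9% of the members against 34.9% of all genes (17.3% higher and 17.6% lower). Of these 18 calls, 7 were lost with some single library left out. They were those of COL4A6, COL6A3, COL11A2, COL12A1, COL17A1, COL24A1 and COL27A1. The members' median log2 difference was 0.45 and that of all genes 0.00. The fibrillar chains COL5A1 (0.85) and COL5A2 (0.86, edgeR adjusted p of 2.01e-06) were higher in MYC-OE. The type IX chain COL9A3 (1.36, edgeR adjusted p of 2.18e-05), the type VI chain COL6A2 (1.40, 0.00245) and the type IV chains COL4A1 (0.43, 0.000348) and COL4A2 (0.83, 0.000469) were higher in MYC-OE as well, while COL24A1 was lower (-0.75), a call lost without 3xSR replicate 3 or MYC-OE replicate 2 or 3 (edgeR adjusted p from 0.0722 to 0.102). With the GC trend removed 13 were higher and 1 lower, 41.2% of members against 37.6% of all genes, with a median of 0.26, and the calls of COL4A6, COL11A2, COL17A1 and COL27A1 ended. COL17A1 then differed by 0.04 (edgeR adjusted p of 0.504). The differences of COL5A1, COL9A3, COL6A2, COL4A1 and COL4A2 shrank to 0.58, 0.86, 0.94, 0.33 and 0.50 and were still called. That of COL5A2 was 0.88.

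Between the lines of the second table, SRSF3-OE and SRSF7-OE differed in 13 of 37 members (35.2% of all genes), SRSF2-OE and SRSF3-OE in 10 (26.8%) and SRSF2-OE and SRSF7-OE in 8 (24.2%). With the GC trend removed these counts rose to 18 (48.6% of members against 42.2% of all genes), 17 (45.9% against 34.6%) and 18 (48.6% against 34.3%). COL9A3 was lower in SRSF3-OE than in SRSF7-OE (log2 difference -2.42, edgeR adjusted p of 6.88e-05), as was COL5A2 (-1.02, 1.43e-07). COL17A1 was higher in SRSF3-OE than in SRSF7-OE (0.52, 0.000431). COL5A2 was also lower in SRSF2-OE than in SRSF7-OE (-1.03, edgeR adjusted p of 7.66e-07).

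Whether the effect in 1 table differed from that in the other was tested as a difference of the log2 fold changes, each against its own control, in a joint fit. Such a difference takes in the levels of both controls as well as those of both lines. A difference between the tables or their controls therefore cannot be told apart from one between the overexpressed factors. The effect in 3xSR differed from that of the libraries labelled SRSF2-OE in 10 of 37 members (21.9% of all genes), of SRSF3-OE in 6 (17.8%) and of SRSF7-OE in 10 (24.6%). Once the GC trend was taken out these became 15, 9 and 16 members (28.3%, 28.2% and 31.2% of all genes). The effect on COL12A1 was more negative in 3xSR than in SRSF3-OE (difference -0.86, edgeR adjusted p of 3.09e-05). Its group means were 225.7 CPM in 3xCTL and 108.5 in 3xSR, and 145.6 in 1xCtrl and 128.2 in SRSF3-OE. COL5A2 differed between 3xSR and SRSF7-OE by -1.19 (edgeR adjusted p of 1.52e-08), and COL4A1 between 3xSR and SRSF2-OE by -0.52 (0.00415). COL8A2, higher in 3xSR and lower in 2 lines of the second table, differed by 1.33 from SRSF2-OE (edgeR adjusted p of 5.98e-06). The MYC-OE effect differed from those of SRSF2-OE, SRSF3-OE and SRSF7-OE in 13, 11 and 7 members (22.0%, 29.2% and 13.7% of all genes), and after removal of the GC trend in 18, 13 and 13 (30.8%, 35.8% and 21.8%). Among these, COL8A2 differed by 1.95 from SRSF2-OE (edgeR adjusted p of 4.38e-08), and COL9A3 by 3.05 from SRSF3-OE (1.92e-06).

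The genes that modify, fold, process, cross-link and bind collagen were counted over 5 lists. These lists were read only from the fit of all libraries of a table, with no GC trend removed. The part of the GC trend and of the control replicates in their results was not tested. The counts stand beside the shares of all genes called. These were 35.3% in MYC-OE, 29.0% in 3xSR, and 23.5%, 29.2% and 17.3% in the lines labelled SRSF2-OE, SRSF3-OE and SRSF7-OE. In MYC-OE 7 of 14 tested prolyl and lysyl modification genes were higher and 1 lower, as were 4 and 1 of 13 chaperone and secretion genes, 3 and 0 of 8 processing genes, 3 and 0 of 5 cross-linking genes, and 4 and 2 of 9 receptors. The called share of these lists ran from 37.5% to 66.7%. In 3xSR the counts were 6 and 5, 6 and 2, 3 and 3, 2 and 2, and 4 and 1, or from 55.6% to 80.0% of each list. Over the same lists in the second table they were 2 and 1, 2 and 4, 0 and 0, 1 and 0, and 0 and 0 in SRSF2-OE; 1 and 0, 3 and 1, 1 and 1, 1 and 1, and 3 and 2 in SRSF3-OE; and 2 and 0, 0 and 2, 0 and 0, 2 and 0, and 0 and 1 in SRSF7-OE.

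The lysyl oxidases, which start the cross-links between collagen molecules, held the largest called change in these lists, that of LOXL2 in MYC-OE. LOX was higher in 3xSR (1.51, edgeR adjusted p of 3.21e-08), MYC-OE (1.29, 5.72e-08), SRSF2-OE (0.73, 9.29e-05) and SRSF3-OE (1.35, 4.58e-07), with group means of 7.32 CPM in 3xCTL, 20.8 in 3xSR and 17.9 in MYC-OE, and 17.3 in 1xCtrl, 28.8 in SRSF2-OE and 44.3 in SRSF3-OE. LOXL2 rose from 2.58 CPM in 3xCTL to 8.76 in 3xSR (1.76, edgeR adjusted p of 6.75e-07) and 31.2 in MYC-OE (3.59, 2.03e-09), and from 12.9 in 1xCtrl to 21.01 in SRSF7-OE (0.71, 0.00116). LOXL1 fell in 3xSR (-1.51, edgeR adjusted p of 0.00222) and SRSF3-OE (-2.38, 0.00163). The levels of the 2 control groups, which lie in different tables, were not compared.

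FKBP10, a chaperone of the endoplasmic reticulum that acts on procollagen, rose from 23.6 CPM in 3xCTL to 89.3 in 3xSR (1.92, edgeR adjusted p of 2.74e-07) and 145 in MYC-OE (2.62, 1.85e-08). Its level in 1xCtrl was 104 CPM, and it was called in no line of the second table. P4HA1, a catalytic subunit of prolyl 4-hydroxylase, rose in MYC-OE (0.91, edgeR adjusted p of 1.6e-07), as did the lysyl hydroxylase PLOD2 (0.65) and P3H4 (1.08). Of the receptors, ITGA1, a collagen-binding integrin subunit, rose in 3xSR (1.38, edgeR adjusted p of 3.44e-07) and MYC-OE (1.28), while MRC2, which takes up collagen fragments, fell in 3xSR (-2.06, edgeR adjusted p of 0.000279), MYC-OE (-0.89) and SRSF3-OE (-1.06).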

How the data were processed

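The authors deposited 2 tables of whole-number counts per Ensembl gene, not normalized, since the sums of the columns differ. The submitters' processing notes name Trimmomatic 0.39, STAR, StringTie 2.1.3b and the build GRCh38.p13, with no role for each. The annotation, the strand setting and whether a read pair counts once are not given in the sources used here. Symbols matched 60295 of 60668 identifiers, and 58516 were found in GENCODE 29 (GRCh38), which gave positions, lengths, GC content and exon overlaps. The counting may rest on another release, since 17 of the 44 members have the same version there. Levels per kilobase use the longest principal transcript of each gene.

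The test was edgeR 4.0.16 in R 4.3.3. The filter was edgeR's filterByExpr at a minimum of 10 counts and a total of 15, libraries were scaled by TMM, and contrasts were tested by the 2-sided quasi-likelihood F test over all groups of a table. P-values were adjusted by Benjamini-Hochberg over every gene tested, with a threshold of 0.05. Differences between effects in the 2 tables came from a joint fit. The replicate numbers in the titles were not used as a block, because same-numbered libraries did not deviate together (correlations from -0.19 to 0.026). Every pair of replicates differed by more than counting noise, with chi-square per degree of freedom of 15.9 or more. That value cannot tell whether the pairs were separate libraries or cultures. Only the edgeR fit within a table was tested on simulated data, and only for some of the contrasts against a control. Members named with values included those called with a log2 fold change of at least 1 in size, or called in several lines. Other called members were also named with their log2 fold change, as were some members called in no line. A few chains were picked for their role. Pathway genes named were called with a size of at least 0.58, and not every such gene was named. The members and lists were chosen with earlier results of these data known. Alternatives were other scalings, no filter, DESeq2 1.42.0, limma 3.58.1 with voom, removal of each library's trend over 50 GC bins, the replicate block, fits of the 2 groups alone, and each library left out. Promoter sequences are RefSeq (GRCh38.p14).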

Additional observations from a re-analysis of the deposited data

How the results depend on the processing

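Of the 53 called differences of members from a control, 33 kept the call under each of the 14 to 17 alternatives run for them, 20 lost it under at least 1, and 0 changed direction. Counts of called members moved by more than 1.5 times in these cases. In 3xSR the count of 10 became 16 with the replicate block and the GC trend removed, and ranged from 8 to 18 with single libraries left out, the highest without 3xCTL replicate 2. In the libraries labelled SRSF2-OE it became 6 with only the 2 groups fitted and ranged from 7 to 15. In SRSF3-OE it became 4 with only the 2 groups fitted and ranged from 5 to 12. In SRSF7-OE the count of 7 became 4 with the replicate block, 14 with the GC trend removed, 13 with both and 4 with only the 2 groups fitted, and ranged from 4 to 18, the highest without 1xCtrl replicate 2. In MYC-OE it stayed within 1.5 times of 16, from 12 to 17 with single libraries left out. Fits of fewer libraries have fewer degrees of freedom; the cause of the other moves was not tested. The replicate block otherwise left 10, 15, 9 and 9 calls in 3xSR, MYC-OE, SRSF2-OE and SRSF3-OE, and 7 of the 53 calls were lost with it; same-numbered libraries share only a number. Direction changed for members that were not called, given here with the range over single libraries left out. COL4A5 in 3xSR became 0.00 with the GC trend removed, with or without the block, 0.02 without 3xCTL replicate 3 and 0.04 without 3xSR replicate 1 (-0.06 to 0.04). COL4A2 in 3xSR became 0.02 with the GC trend removed, with or without the block (-0.37 to -0.16). In SRSF2-OE, COL4A2 became -0.02 and -0.09 (-0.09 to 0.49) and COL17A1 -0.02 and -0.07 (-0.07 to 0.19) without 1xCtrl replicates 1 and 3, and COL7A1 became 0.05 with the GC trend removed, 0.06 with the block as well, 0.04 with voom and 0.46 without 1xCtrl replicate 2 (-0.41 to 0.46). Without 1xCtrl replicate 2, COL7A1 became 0.09 in SRSF3-OE (-0.78 to 0.09) and 0.29 in SRSF7-OE (-0.59 to 0.29), and COL18A1 0.20 (-0.92 to 0.20) and 0.61 (-0.51 to 0.61). COL18A1 also became 0.03 in MYC-OE without 3xCTL replicate 1 (-0.46 to 0.03), and in SRSF7-OE 0.01 with voom and 0.03 without SRSF7-OE replicate 2. The cause was not tested. Scaling by total counts alone moved the median of all genes in SRSF3-OE to -0.14 from -0.03 and its share of higher calls to 32.1%, with 1 member higher and 8 lower against 3 and 7. The groups held 3 libraries each, and both controls held 1 that stood apart. Small differences of GC-rich chains such as COL7A1, COL18A1 and COL6A2 were not resolved in the second table. Chains that failed the count filter, which reached at most 19 counts in any library, were not tested.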
